A study of Mus musculus with 4 samples.

Results

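Endogenous retroviruses of the ERV1 class are remnants of gammaretrovirus-like insertions in the mouse genome, and the H3K27ac regions of embryonic stem (ES) cells that lie in them are described here. H3K27ac, acetylation of histone H3 at lysine 27, marks active enhancers and promoters. A region was taken as a member when the deposited annotation placed its centre in a repeat of the class LTR, family ERV1. By this rule 308 of 11651 listed regions were members, and they were grouped by repeat name and by strain.

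An intact provirus carries an internal stretch of viral genes between identical long terminal repeats (LTRs), which hold the enhancer, the promoter and the polyadenylation signal of the virus. Recombination between both LTRs leaves a solitary LTR, the most common form of old insertions. In ES cells most such elements are held silent by a KRAB zinc finger, Trim28 and Setdb1 pathway, while some LTR families are known to act as enhancers or promoters there.

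ChIP-Seq was performed on ES cells derived from blastocysts of C57BL/6 (B6) and of non-obese diabetic (NOD) mice, a strain that develops autoimmune diabetes spontaneously. Both were grown in 2i medium, in which inhibitors of MEK and GSK3 maintain the naive state. H3K27ac and H3K4me3, a mark of promoters, were each measured in 1 library per strain, which gave 4 libraries and no replicates, and the labels do not give the ES cell line behind a library. Each region list had been called with the other strain as the background, so a region marked alike in both strains would not be listed, and regions are called NOD-enriched or B6-enriched here.

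With 1 library per strain and mark no difference between the strains could be tested against replicate error. Intervals are 95% intervals and cover counting error only. The H3K4me3 libraries held 22750449 tags in NOD and 14791364 tags in B6, while no depth is known for H3K27ac. Positions are those of the files, in mm10. Each H3K27ac region carries a score, the signal in the strain it was called in less the signal in the other one, in a unit that is not stated. Regions were marked as super enhancers where the deposited slope of the ranked scores was at least 1.

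The finding turned on a single LTR, LTRIS2, and its sequence is therefore shown first. The highest-scoring LTRIS2 region, NOD-enriched and nearest to D14Ertd670e, covered an LTR copy at chr14:19860599-19861141 of the reference genome, GRCm38.p6, the same build as mm10. A stretch of 300 bases of it at chr14:19860658-19860957 on the plus strand, which is the strand of the LTR, is given with the letters ATGCAAA in capitals.

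LTRIS2 at D14Ertd670e: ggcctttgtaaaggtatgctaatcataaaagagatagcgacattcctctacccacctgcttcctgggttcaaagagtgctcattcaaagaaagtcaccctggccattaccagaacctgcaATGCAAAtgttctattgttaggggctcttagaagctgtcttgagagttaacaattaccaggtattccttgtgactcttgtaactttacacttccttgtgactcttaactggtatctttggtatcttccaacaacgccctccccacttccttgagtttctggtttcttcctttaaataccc

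The same place of the LTR is shown for further members, each over 68 bases in the direction of the LTR, so that NOD-enriched and B6-enriched copies can be compared. H2-Eb1 (chr17:34310615-34310682, minus strand), Mup20 (chr4:62024772-62024839, plus strand) and 4930433B08Rik (chr3:18696849-18696916, minus strand) are the nearest genes of NOD-enriched regions. Tchhl1 (chr3:93462021-93462088, plus strand) and 4930515G16Rik (chr6:67881495-67881562, minus strand) are those of B6-enriched regions. The region near 4930515G16Rik (chr6:67881225-67881487) covered its LTR copy (chr6:67881166-67881716) only in part, and the printed stretch lies just outside the region. Its score was 11.9, and the B6-enriched regions near Gm21119 (16.1) and Lrrc6 (13.7) are not shown. The last sequence (chr3:55106797-55106864, plus strand) is from the copy that was most like all other copies of the genome. It also lay under a NOD-enriched region, nearest to Spg20 (chr3:55106253-55107463, score 39.1), so it is no unmarked reference. Capitals again mark ATGCAAA.
NOD, H2-Eb1: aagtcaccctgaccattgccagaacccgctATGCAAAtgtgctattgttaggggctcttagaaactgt
NOD, Mup20: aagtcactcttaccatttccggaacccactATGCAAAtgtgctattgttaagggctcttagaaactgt
NOD, 4930433B08Rik: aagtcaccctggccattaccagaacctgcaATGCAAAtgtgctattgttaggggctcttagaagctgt
B6, Tchhl1: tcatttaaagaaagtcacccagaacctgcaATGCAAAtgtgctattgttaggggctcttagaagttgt
B6, 4930515G16Rik: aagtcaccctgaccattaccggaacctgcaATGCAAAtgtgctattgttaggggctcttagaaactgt
NOD, Spg20: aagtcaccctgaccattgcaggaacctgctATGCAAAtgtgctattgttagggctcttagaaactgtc

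RLTR1B, the ERV1 LTR with the next largest number of regions, is given for contrast around its TATAAA, the letters of a TATA box, which are in capitals. The NOD-enriched copy lies near C330021F23Rik (chr8:3546186-3546252, minus strand) and the B6-enriched copy near Klrb1 (chr6:128717920-128717986, plus strand).
NOD, C330021F23Rik: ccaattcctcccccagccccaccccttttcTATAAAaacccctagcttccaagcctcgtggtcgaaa
B6, Klrb1: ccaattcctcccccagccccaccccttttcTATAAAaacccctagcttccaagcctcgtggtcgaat

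ERV1 regions were listed more often in NOD than in B6 ES cells. There were 213 of 6126 NOD-enriched regions, a share of 3.48% (Wilson interval 3.05 to 3.97%), and 95 of 5525 B6-enriched regions, a share of 1.72% (1.41 to 2.10%). The NOD to B6 ratio was 2.24 (exact binomial interval 1.75 to 2.89), beside 1.11 (1.07 to 1.15) over all listed regions. The same ratio was 1.6 (1.42 to 1.81) for ERVK, the class of the IAP elements, 1.15 (0.980 to 1.36) for ERVL and MaLR, and 1.39 (1.16 to 1.67) for the LINE family L1. On 20 of 21 chromosomes the NOD list held more ERV1 regions than the B6 list, and on 1, chromosome 11, it held fewer (8 in NOD and 9 in B6).

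Most of the difference in numbers lay in LTRIS2. Of the 54 ERV1 names listed in either strain, 25 were in both lists, 18 in the NOD list alone and 11 in the B6 list alone, and 6 names had at least 10 regions. LTRIS2 named 85 NOD-enriched and 4 B6-enriched regions, a ratio of 21.2 (8.0 to 79.8), so it made up 39.9% of the NOD members and 4.21% of the B6 members. Without LTRIS2 there were 128 NOD-enriched and 91 B6-enriched ERV1 regions, a ratio of 1.41 (1.07 to 1.86), which lies between those of ERVL and MaLR and of ERVK.

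The internal sequence RLTR1B-int named 15 NOD-enriched regions and 1 B6-enriched region, a ratio of 15 (2.31 to 631), while the LTR RLTR1B named 21 and 18 (1.17, 0.592 to 2.32). RLTR23 named 10 and 7 regions (1.43, 0.491 to 4.42), MLTR14 named 6 and 7 (0.857, 0.238 to 2.98) and RLTR41 named 4 and 6 (0.667, 0.138 to 2.81). The intervals of RLTR1B, RLTR23, MLTR14 and RLTR41 all included 1. The 48 names with fewer than 10 regions had 72 NOD-enriched and 52 B6-enriched regions in all, a ratio of 1.38 (0.956 to 2.02). Once LTRIS2 and RLTR1B-int were both set aside, the ratio was 1.26 (0.943 to 1.68).

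**Figure D1:**
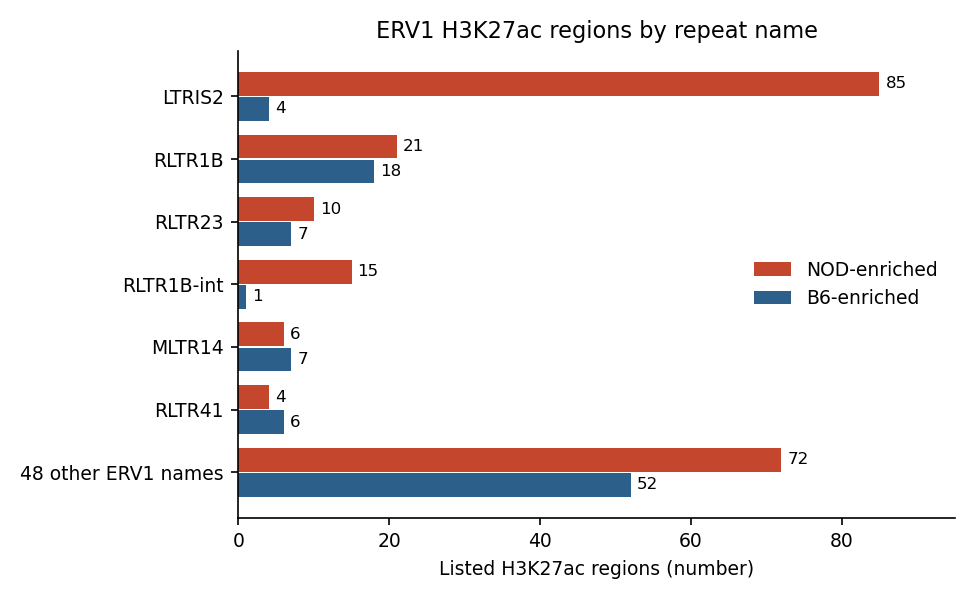
Number of listed H3K27ac regions (horizontal axis) for each ERV1 repeat name with at least 10 regions and for the 48 other names together, in NOD (red) and B6 (blue). LTRIS2, with 85 and 4 regions, and RLTR1B-int, with 15 and 1, differ most between the lists, and the 48 other names have 72 and 52.

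LTRIS2 regions were spread over the genome and mostly outside genes. The 85 NOD-enriched ones lay on 20 chromosomes, with at most 10 on any of them, and no LTRIS2 region was listed on chromosome Y. Of these, 72 were intergenic and 13 intronic. No pair of ERV1 regions of 1 list had centres within 10 kb of each other, and the median gap between neighbours was 6868 kb in NOD. Members were up to 28569 bp wide in NOD, and wide regions can hold several calls joined before listing. The lack of close pairs may therefore have been set by the calling, and nothing is concluded from it.

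NOD-enriched ERV1 regions had higher scores and were wider than the rest of their list, and B6-enriched ones were not. The median score was 30.7 in NOD (quartiles 10.8 and 80.4), where the median of the whole list was 12.95. In B6 the median was 12.9 (quartiles 8.76 and 24.2), beside 12.8 for the whole list. The median width was 953 bp in NOD against 293 bp over the list, and 262 bp in B6, which is the size of a single call there and also the median of that list. Per kb of region the median score was 37.5 in NOD and 35.5 in B6, close to the 37.1 and 35.9 of all regions. Across all NOD members the higher scores therefore went with wider regions, but the score per kb differed by name. Its median was 45.7 in the 94 NOD-enriched regions whose name starts with LTRIS, which include LTRIS2. In the 128 NOD-enriched ERV1 regions not named LTRIS2 it was 33.4. The part of width in the LTRIS2 scores was not tested.

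Score and width differed by repeat name. The 85 NOD-enriched LTRIS2 regions had scores from 5.97 to 383.1 with a median of 44.8 and a median width of 1196 bp, and 64 of them reached a score of 20. The 4 B6-enriched LTRIS2 regions had scores of 51.8, 16.1, 13.7 and 11.9. The 15 NOD-enriched RLTR1B-int regions had a median score of 68.7 and a median width of 4576 bp, and the B6-enriched one, near Car5b, scored 182.8. In contrast, the 21 NOD-enriched RLTR1B regions had a median score of 8.78 and the 18 B6-enriched ones of 9.61. RLTR1B thus had similar numbers and similar scores in both strains.

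**Figure D2:**
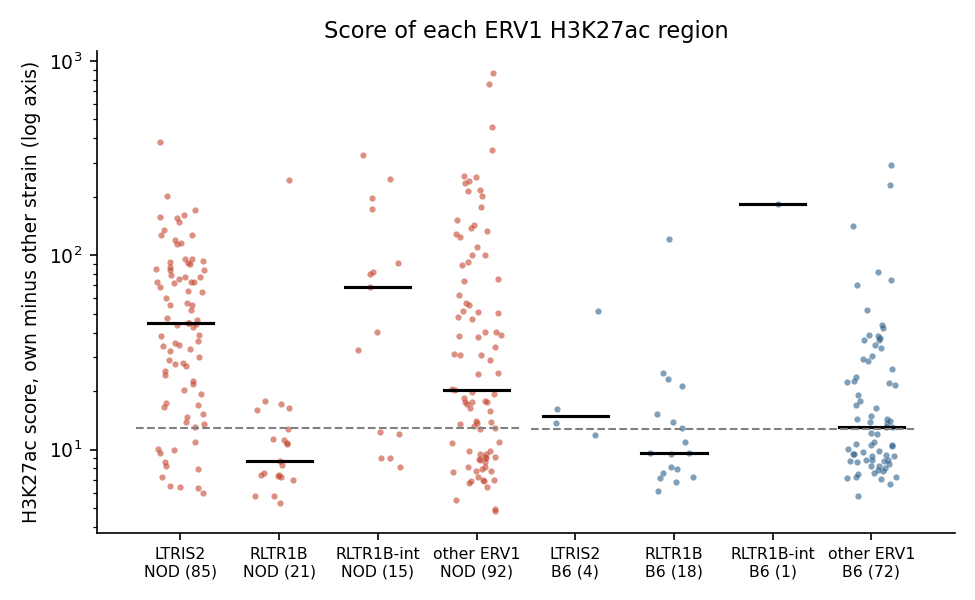
Score of each ERV1 H3K27ac region on a log axis by repeat name and strain, with the number of regions in brackets. Black lines are medians and the dashed lines are the medians of the whole NOD and B6 lists (12.95 and 12.8). The LTRIS2 regions of NOD centre on 44.8, while the medians of RLTR1B, 8.78 and 9.61, lie below the dashed lines in both strains.

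Super enhancers are long or strong stretches of H3K27ac at the top of the ranked scores. Of the NOD-enriched ERV1 regions, 41 (19.2%, 14.5 to 25.1%) were marked so, against a background of 8.02% of all NOD-enriched regions. Among the members of at most 1000 bp the share was 2.70% (0.923 to 7.65%), and the part of width in the excess was not tested. Of the B6-enriched ones 7 (7.37%, 3.61 to 14.4%) were, against 6.91%. By name, the NOD super enhancers comprised 15 LTRIS2 regions, 4 of RLTR1B-int, 2 of RLTR23, 1 each of RLTR1B, MLTR14 and RLTR41, and 17 of rarer names. None of the 4 LTRIS2 regions of B6 was a super enhancer.

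The highest scores were in wide NOD-enriched regions centred in RLTR4_Mm, a name related to murine leukaemia virus. They were 27648 and 14611 bp wide, and a score is of the whole region, not of the repeat at its centre. An RLTR4_Mm region at chr19:38367988-38395636, 14.2 kb upstream of Slc35g1, scored 869.9 and ranked 4 in the NOD list. A second RLTR4_Mm region at chr4:15235415-15250026, nearest to Tmem64, scored 762.4 and ranked 8. Other high-scoring regions were the LTRIS2 region of D14Ertd670e at chr14:19860090-19862053 (383.1) and an RLTR14-int region in intron 3 of 3 of Bcl2l15 (348.8). They were followed by RLTR1B-int regions near Vpreb2 (328.9) and Dynlt1f (247.7), a RodERV21-int region near Thpo (255.5), an RLTR4_MM-int region near Ust (252.5) and an RLTR1B region near C330021F23Rik (244.9).

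In all, 6 NOD-enriched regions carried the names RLTR4_Mm or RLTR4_MM-int, a grouping made after their values were seen. Their scores ran from 123.5 to 869.9, their widths from 9610 to 27648 bp, and all 6 were super enhancers. The B6 list held 1 RLTR4_MM-int region, near Ift80, and 1 MuLV-int region, near 4933406G16Rik, with scores of 23.5 and 7.74.

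The B6-enriched top 10 had lower scores, and MMERGLN-int was the only name that occurred more than once in it. An MMERGLN-int region at chr8:121831964-121841842, 7.33 kb upstream of Klhdc4, scored 291.2 and ranked 23 in the B6 list. It was followed by RLTR24 near Zfp706 (229.1), RLTR1B-int near Car5b (182.8), RMER5 in intron 2 of 8 of Agpat4 (142.1), RLTR1B near Actr2, which encodes a subunit of the actin-nucleating Arp2/3 complex (120.8), and RMER2 1.74 kb upstream of Cox6c, which encodes a subunit of cytochrome c oxidase (81.6). RMER21A near Adgrd1 (74.3), MMERGLN-int near 1700030C10Rik (70.0), MERV1_LTR near Hspe1, a mitochondrial chaperonin (52.3), and LTRIS2 near Tchhl1 (51.8) completed it. Here too a score is of the whole region, and the RMER5 and RLTR24 regions were 23963 and 11688 bp wide.

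ERV1 regions were rarely near annotated promoters, which the rule of membership partly set. None of the ERV1, ERVK, ERVL and MaLR or L1 regions was annotated as a promoter, while 512 NOD-enriched and 332 B6-enriched regions were. The shares of all regions given here include these, and so their contrast with the members is partly one of annotation. Within 5 kb of a transcription start site (TSS) lay 19 of the 213 NOD-enriched regions (8.92%, 5.78 to 13.5%), against 27.5% of all NOD-enriched regions, and 8 of the 95 B6-enriched ones (8.42%, 4.33 to 15.7%), against 19.9%. Within 1 kb there was none in NOD, which allows a share of up to 1.41% (3 counts of the total), and 1 in B6, near Gnpda1. Intergenic positions made up 82.6% of the NOD and 74.7% of the B6 members, beside 43.6% and 39.4% of all regions. In NOD the share within 5 kb of a TSS was 5.93% for ERVK, 9.15% for L1 and 12.4% for ERVL and MaLR, and the intergenic share was 78.4%, 65.8% and 58.8%.

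Among the highest-scoring of these TSS-near regions in NOD were that of H2-Eb1 (202.3) and LTRIS2 regions 2.535 kb upstream of Aox3 (126.4), 4.41 kb upstream of the interferon-induced gene Rtp4 (90.6) and 4.505 kb upstream of Taar1 (32.3). RLTR14 lay 4.30 kb upstream of Blm, the Bloom syndrome helicase (51.5), RMER5 1.56 kb upstream of Phf20 (48), RLTR30D2_MM 1.94 kb upstream of Stk38l (38), RLTR1B-int 1.47 kb downstream of the TSS of Ermard (32.5) and MLTR73 4.43 kb upstream of Slc12a9 (30.7). In B6 they were Cox6c, then MLTR14 3.99 kb upstream of Piga, an enzyme of GPI anchor synthesis (22.5), RMER21B 2.42 kb upstream of Ankrd54 (21.6) and MLTR14 1.29 kb upstream of Tmem29 (17.0), with Rnase13, Gnpda1, Mep1b and Olfr926 at scores from 7.92 to 14.9.

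H3K4me3 was asked next, as a mark of promoter activity. Of the NOD-enriched ERV1 regions 27 (12.7%, 8.86 to 17.8%) overlapped a NOD-enriched H3K4me3 region by at least 1 bp, against 9.84% of all NOD-enriched H3K27ac regions. Of the B6-enriched ones 4 (4.21%, 1.65 to 10.3%) overlapped a B6-enriched H3K4me3 region, against 4.65%. Both shares were near the background. No ERV1 region overlapped an H3K4me3 region of the other strain, which by the same limit of 3 counts allows shares of up to 1.41% in NOD and 3.16% in B6, beside 0.702% and 1.92% of all regions.

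By name, 7 of the 15 NOD-enriched RLTR1B-int regions and 7 of the 85 LTRIS2 regions overlapped H3K4me3, and none of the 21 RLTR1B regions. The 27 regions with H3K4me3 had a median H3K27ac score of 128.6, and those without it 21.1, and 16 of the 41 super enhancers were among them. Wider regions have more room for an overlap, and their part in this difference was not tested.

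The tags are given as counts, for the H3K4me3 region with the most tags where several overlapped, and ratios of NOD to B6 are scaled to the library totals. Each count is of the whole H3K4me3 region, which need not cover the repeat that names the H3K27ac region. Those of Slc35g1, Tmem130, Cops8, Rpap3 and Cldn34c1 below did not reach the centre of the H3K27ac region. The largest count was in the RLTR1B-int region near Vpreb2, with 821 NOD tags and 16 B6 tags, or 33.4 times as many in NOD (20.4 to 58.6). The LTRIS2 region of H2-Eb1 had 336 and 36 tags (6.07, 4.30 to 8.81). The RLTR23 region near Dnaja2, an Hsp70 co-chaperone, had 311 and 13 (15.6, 8.96 to 29.5), the RLTR4_MM-int region near Tmem130 had 298 and 9 (21.5, 11.2 to 47.5) and the RLTR4_Mm region of Slc35g1 had 272 and 17 (10.4, 6.38 to 18.1). These lists required 4-fold more tags than in the other strain, so the ratios could not be small.

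LTRIS2 regions near Cops8, a COP9 signalosome subunit (189 and 22 tags; 5.59, 3.58 to 9.13), Rnf216 (174 and 9; 12.6, 6.47 to 28) and Rpap3 (110 and 6; 11.9, 5.30 to 33.2) had fewer tags. The RLTR1B-int region near Cldn34c1 had 107 tags in NOD and 0 in B6, at least 23.2-fold higher against a floor of 3 tags in that library, with an exact lower limit of 18.5. Tags in B6 had a median of 3 and a maximum of 36 over the 27 regions, fewer than in NOD as the 4-fold rule of the lists required. B6-enriched H3K4me3 regions had a median of 20 B6 tags, beside the 36 of H2-Eb1 and the 22 near Cops8. The regions of H2-Eb1 (chr17:34309027-34310673) and Cops8 (chr1:90627283-90628202) were wider than the peak size of 500 bp used in the calling. Counts were not scaled by width, so whether these are low for that library cannot be read from them.

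In B6 the MMERGLN-int region of Klhdc4 had 220 tags in B6 and 17 in NOD, a B6 to NOD ratio of 19.9 (12.2 to 34.8). These tags are of an H3K4me3 region (chr8:121841257-121843276) that overlapped only the end of the H3K27ac region and not its centre. RLTR1B-int near Car5b had 23 and 2 (17.7, 4.37 to 155), RLTR41 near Galntl5 had 16 and 1 (24.6, 3.82 to 1032) and RLTR41A2 near 1700011H14Rik had 16 and 0, at least 8.20-fold higher by the same floor, with an exact lower limit of 5.93. Apart from Klhdc4 these counts were small, and the order of these ratios cannot be read. The H3K4me3 region near 1700011H14Rik (chr14:49362733-49363233) also overlapped only the end of its H3K27ac region. Those near Car5b and Galntl5 did not reach the centre of theirs either.

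**Figure D3:**
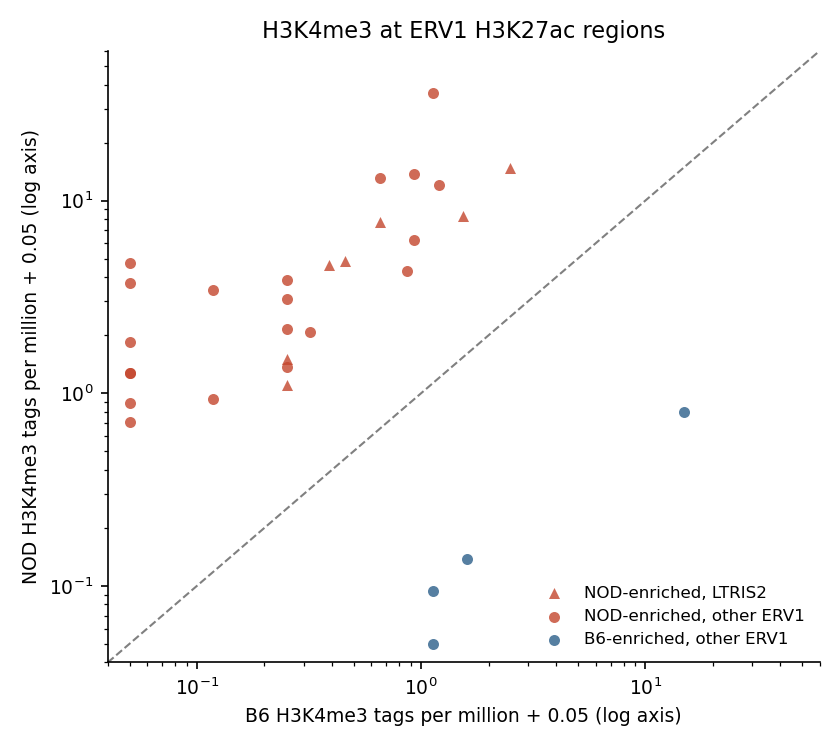
H3K4me3 tags scaled to the library totals, with 0.05 added, in B6 (horizontal log axis) and NOD (vertical log axis) for the 31 ERV1 H3K27ac regions that overlap an H3K4me3 region of the same strain. Triangles are LTRIS2 regions, circles other ERV1 regions, and the dashed line is equality, which the 27 NOD-enriched (red) and 4 B6-enriched (blue) regions lie on either side of.

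H2-Eb1 was the only gene of the gene lists that an ERV1 region was assigned to. It encodes the beta chain of the class II antigen-presenting molecule I-E. The NOD-enriched LTRIS2 region at chr17:34309953-34311300 lay in intron 2 of 5, 4.76 kb downstream of the TSS, with a score of 202.3 that ranked 161 of 6126, and it was a super enhancer. The LTR inside it (chr17:34310287-34310838, minus strand) had 94.4% identity to the most typical copy, and the H3K4me3 region with 336 NOD tags (chr17:34309027-34310673) covered part of it.

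None of the other genes of antigen presentation (11 in all), of retroviral silencing (25), of retroviral receptors and restriction (8 found in RefSeq of 9), of pluripotency (14) or of the 2-cell-like state (10) had an ERV1 region assigned. Over all 21787 protein-coding RefSeq genes, 172 (0.789%) had a NOD-enriched one. Within the body or 5 kb of a TSS of the silencing genes, 8 of 25 had any NOD-enriched H3K27ac region and 12 of 25 a B6-enriched one, beside 16.5% and 14.5% of all protein-coding genes. Setdb1, the H3K9 methyltransferase of the pathway, had 1 in NOD, while Dnmt1 and Dnmt3l, a DNA methyltransferase and its cofactor, had 1 each in B6. For H3K4me3 the counts were 9 in NOD, among them Trim28 with 2 regions, and 5 in B6, beside 24.4% and 16.5%.

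Among the pluripotency genes 7 of 14 had NOD-enriched H3K4me3, including Pou5f1 and Sox2, and 3 had B6-enriched H3K4me3, while 1 and 2 had H3K27ac regions, against the same shares of all protein-coding genes, 24.4% and 16.5% for H3K4me3 and 16.5% and 14.5% for H3K27ac. Of the receptor and restriction genes, 2 of 8 had H3K4me3 in NOD, Xpr1 and Slc20a2, both phosphate transporters that serve as virus receptors. Fv1, a capsid restriction factor, and Slc20a1 had it in B6, and Slc7a1 alone had H3K27ac, in B6. Of the 10 2-cell-like genes 2 had H3K27ac in NOD and none in B6. The receptor and 2-cell-like counts rest on 8 and 10 genes.

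The annotation names a region only by the repeat at its centre. To count LTRs whatever the region was named, the most typical LTRIS2 and RLTR1B copies were searched for in the reference genome, and sequences with at least 80% identity over at least 80% of the LTR were taken as copies. The 2 LTRs were chosen because their names had the most regions. There were 1087 LTRIS2-like and 706 RLTR1B-like copies. The reference is of the B6 strain, and whether NOD carries each copy was not tested.

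About 1 in 5 LTRIS2-like copies lay under a NOD-enriched region. The number was 215 (19.8%, 17.5 to 22.3%), against 13 (1.20%, 0.700 to 2.04%) under a B6-enriched region, a ratio of 16.5 (9.47 to 31.6), and 1 copy was under both. Of RLTR1B-like copies 41 (5.81%, 4.31 to 7.78%) lay under NOD-enriched and 29 (4.11%, 2.88 to 5.84%) under B6-enriched regions, a ratio of 1.41 (0.858 to 2.36). The regions themselves cover 0.321% of the genome in NOD and 0.278% in B6.

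Counting by sequence more than doubled the number of LTRIS2 regions. In NOD 203 regions held a copy, of which 82 were named LTRIS2, 13 had another ERV1 name and 108 had no ERV1 name. By annotation at the centre, the 203 comprised 95 ERV1, 24 ERVK, 15 L1 and 5 ERVL and MaLR regions, 15 in other repeats and 49 in no repeat. RLTR1B-int regions were among them, with 9 of the 15 in NOD holding 16 LTRIS2-like copies. In B6 11 regions held a copy, including all 4 named LTRIS2.

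Of the 491 NOD super enhancers 75 (15.3%) held an LTRIS2-like copy, and of the 382 in B6 3 did (0.785%). Over all listed regions the shares with a copy were 3.31% in NOD and 0.199% in B6. The 203 NOD regions had a median score of 73.5 and a median width of 1295 bp. Wide regions hold a copy more easily, so part of this share can come from width, and with regions of at most 2000 bp the share of copies under a NOD-enriched region was 13.0% (11.1 to 15.1%) and that under a B6-enriched one 0.644% (0.312 to 1.32%).

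Centres of H3K27ac regions, taken over the whole lists whatever their annotation, were densest at the LTR itself. The 2 LTRs were chosen by the repeat names at region centres, so a peak at them was partly set by that choice. Of the NOD-enriched regions over a copy, 82 of 203 for LTRIS2 and 14 of 41 for RLTR1B bore the name of that LTR. Around LTRIS2-like copies 205 pairs of a copy and a NOD-enriched region had centres within 1 kb, or 102.5 per kb, against 12.7 per kb from 2 to 5 kb away, a ratio of 8.09 (6.19 to 10.7). The average over the genome was 2.44 per kb. B6-enriched regions gave 24 pairs within 1 kb and a ratio of 7.20 (3.32 to 16.9). Around RLTR1B-like copies the ratios were 4.62 (2.75 to 7.88) in NOD and 7.25 (3.59 to 15.6) in B6.

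Region centres lay more often on the 5′ side of the LTR, the side of its enhancer and promoter. In the direction set by the polyadenylation signal AATAAA, 126 NOD-enriched centres fell in the 1 kb before and 79 in the 1 kb after the centre of an LTRIS2-like copy. For RLTR1B-like copies the numbers were 29 and 11 in NOD, and 17 and 12 in B6. H3K4me3 showed no such peak at LTRIS2, with 45 pairs within 1 kb of LTRIS2-like copies in NOD and a ratio to the 2 to 5 kb flank of 1.31 (0.902 to 1.88). Its density in that flank was 17.2 per kb, beside 4.82 on average over the genome. At RLTR1B-like copies its ratio in NOD was 1.89 (1.05 to 3.31). H3K4me3 regions had no part in the choice of the LTRs, so the peaks of the 2 marks cannot be compared here.

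**Figure D4:**
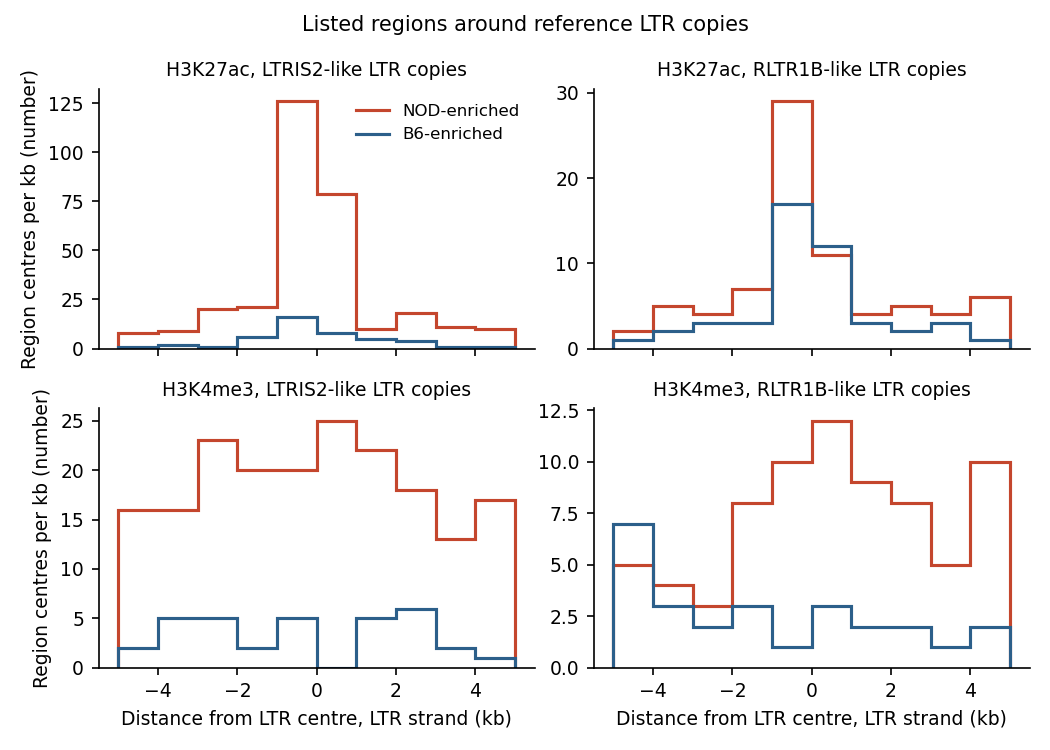
Number of listed regions per kb by the distance of their centre from the centre of reference LTR copies, along the strand of the LTR (5′ to the left), for LTRIS2-like copies (left) and RLTR1B-like copies (right), for H3K27ac (top) and H3K4me3 (bottom), in NOD (red) and B6 (blue). NOD-enriched H3K27ac peaks at LTRIS2 with 126 and 79 centres in the bins beside the LTR centre, while H3K4me3 has no such peak at LTRIS2. The LTRs were chosen by H3K27ac region centres, which favours such a peak for H3K27ac alone.

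Median identity and spacing differed little between copies under NOD-enriched regions and the others, but the least alike copies lay under such a region less often. The median identity of the former to the typical copy was 88.9%, against 88.5% for copies under no region. In 4 groups of equal size by identity, from the least to the most alike, 12.1%, 21.7%, 25.0% and 20.3% of copies lay under a NOD-enriched region, so the least alike group had the smallest share. Copies with a same-strand partner at 2 to 12 kb, the spacing of a provirus, were under one in 20.7% of 135 cases, and solitary copies in 19.6%.

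5 short motifs of factors active in ES cells or at LTR promoters were searched on both strands. ATGCAAA is the core of the octamer bound by POU factors such as Oct4, AAGGTCA is the site of the orphan receptor Esrrb, GGGTGTG is bound by Klf factors, CCAAT by NF-Y, and TATAAA is the TATA box. ATGCAAA was in 82.8% (80.4 to 84.9%) of the 1087 LTRIS2-like copies and in 6.37% (4.8 to 8.42%) of the RLTR1B-like ones. It lay on the strand of the LTR in 877 copies, at a median position of 180 from its 5′ end, the place printed above, and a T followed in 726 of these.

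The motif did not separate marked from unmarked copies clearly. It was in 188 of the 215 copies under NOD-enriched regions (87.4%, 82.3 to 91.2%), in all 13 under B6-enriched regions, and in 81.4% (78.7 to 83.9%) of the 860 under neither. Conversely, 20.9% (18.4 to 23.7%) of copies with it and 14.4% (10.1 to 20.2%) of the 187 without it lay under a NOD-enriched region. AAGGTCA was in 12.6% (8.78 to 17.7%) of the copies under NOD-enriched regions and in 23.8% (21.1 to 26.8%) of those under neither.

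The 2 LTRs differed in the remaining motifs. CCAAT was in 99.4% of RLTR1B-like copies but 9.75% of LTRIS2-like ones, and TATAAA in 93.1% against 4.78%. GGGTGTG was rare in both, at 1.13% and 1.66%. Of LTRIS2-like copies under NOD-enriched regions 4.19% (2.22 to 7.76%) had CCAAT, against 11.3% (9.33 to 13.6%) of those under neither. In the same groups TATAAA was in 3.26% and 5.23%, and GGGTGTG in 0.465% and 1.98%. A match describes letters and says nothing of binding.

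In the 300 bp around the centres of listed regions NOD and B6 members were compared for the same motifs. ATGCAAA was in 25.8% (20.4 to 32.1%) of NOD-enriched ERV1 regions, 45 of the 55 being LTRIS2, and in 14.7% (8.99 to 23.2%) of B6-enriched ones, beside 6.38% and 6.97% of all listed regions. Without LTRIS2 the order turned round, with 7.81% (4.30 to 13.8%) in NOD and 13.2% (7.71 to 21.6%) in B6. CCAAT was in 34.7% and 54.7%, beside 32.4% and 32.5%, and without LTRIS2 in 51.6% and 57.1%. TATAAA was in 19.7% and 35.8%, beside 17.4% and 16.9%. AAGGTCA was in 12.7% and 11.6%, beside 6.68% and 8.76%, and GGGTGTG in 1.88% and 4.21%, beside 7.17% and 9.76%. Median GC content was 45.7% and 46.7%, close to the 46.0% and 47.3% of all regions, and the median ratio of observed to expected CpG was 0.23 in both, beside 0.21 and 0.19. The reference sequence at the centre was soft-masked in 65.3% and 47.4% of members, beside 29.3% and 23.2%. By the deposited annotation every member had its centre in a repeat, so this masking differs from that annotation.

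Copies of young repeats can be alike over the length of a read, and 50 bp reads from them cannot be placed with certainty. How reads with several placements were treated is not given in the sources used here. In NOD-enriched ERV1 regions 36.5% of all words of 50 bases occurred more than once in the genome, and in B6-enriched ones 15.2%, beside 11.7% and 5.67% over all regions. ERVK regions had 20.9% and 15.7%, and L1 regions 19.3% and 9.52%.

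By name the share was 63.3% in NOD-enriched RLTR1B-int regions, 23.8% in LTRIS2 regions, 22.1% in RLTR1B regions and 4.69% in RLTR23 regions. In the 6 NOD-enriched regions with names related to murine leukaemia virus it was 50.2%, and 93.3% in the 300 bp around their centres. LTRIS2-like copies had a median of 58.9% repeated words under NOD-enriched regions and 45.1% under none, and 88.5% under B6-enriched ones. In 4 groups of equal size by this share, from the most unique to the most repeated, 10.3%, 16.2%, 29.2% and 23.5% of LTRIS2-like copies lay under a NOD-enriched region and 0.368%, 0.368%, 1.48% and 2.57% under a B6-enriched one. NOD exceeded B6 in each of the 4 groups, and the part of read placement in the level was not tested. The number of copies of each element in the genome of NOD cannot be told apart from the level of the mark at each copy.

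**Figure D5:**
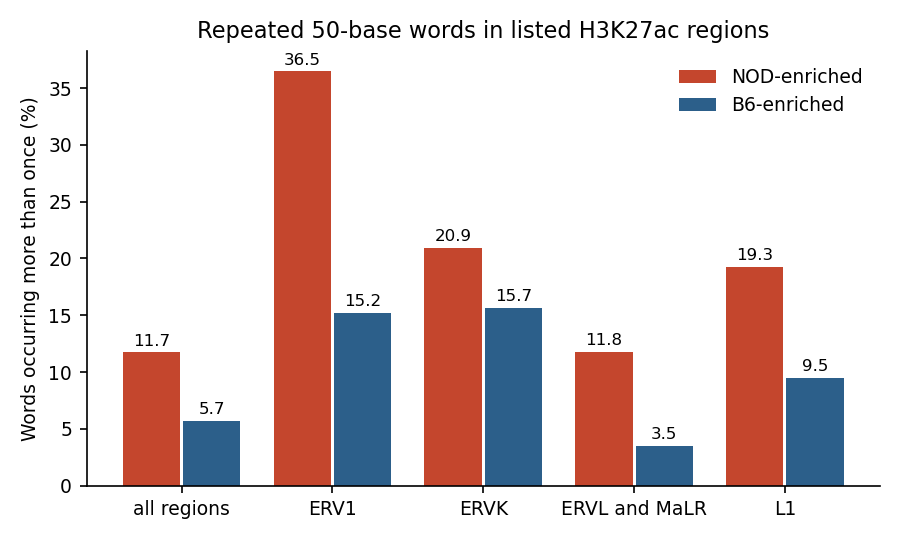
Share of 50-base words of the listed H3K27ac regions that occur more than once in the reference genome (vertical axis, percent), for all regions and by repeat class in NOD (red) and B6 (blue). Among the classes plotted, NOD-enriched ERV1 regions have the highest share, 36.5%.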

How the data were processed

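ChIP-Seq of H3K27ac and H3K4me3 was analysed from 1 library per mark in NOD and in B6 ES cells, as regions that the authors called with HOMER (version 4.8 in the methods of the study) against the other strain. The methods name mm10 and bowtie2, whereas the submitters' processing notes list mm9, CASAVA 1.8.2, STAR 2.2.0c and HOMER. The annotation command in the header of the H3K27ac lists names mm10, no region passed a chromosome end of GRCm38.p6, and 90.1% of 2901 deposited TSS distances were within 5 bp of a RefSeq one, so mm10 was used. The deposited H3K27ac score and the deposited slope score have no stated scale. In the 5 highest regions of each list the slope column holds the region size, and these were counted as super enhancers. A slope of at least 1 at the low end of the scores (27 NOD and 16 B6 regions, none ERV1) was not counted.

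The deposited H3K4me3 counts of B6 tags are unscaled, and the deposited NOD tags were scaled by the authors to the B6 library. Whole NOD tags were recovered with the header totals (largest gap 0.0769), and the authors' placeholders 0.3 and 0.5 were read as 0. The deposited normalised signal, fold ratio and p-value columns of the authors were not used, as they hold the authors' own comparison of both libraries. A score column of the H3K4me3 lists, per the file headers, was not used either.

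Overlaps needed 1 bp. Shares have Wilson intervals and ratios exact conditional binomial intervals from scipy 1.17.1 (Python 3.11.15, numpy 2.4.6, pandas 2.3.3). LTR copies were found with blastn 2.17.0 on the primary chromosomes of GRCm38.p6 and oriented by AATAAA. Repeated words of 50 bases were counted over both strands with numba 0.67.0. Sequences are from RefSeq GRCm38.p6. Functions were tested on simulated data. No test between strains was possible with 1 library each.

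Members, gene lists and motifs were chosen with earlier results of these data known. Named regions were the 10 with the highest score in each list, up to 10 within 5 kb of a TSS by score, up to 10 over H3K4me3 of the same strain by tags, and those assigned to a gene of the lists. Repeat names with at least 10 regions were described singly. Others that are named were chosen after their values were seen. One region that these rules name is not reported here.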

Additional observations from a re-analysis of the deposited data

How the results depend on the processing

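The 11 values were recomputed under 52 alternatives, 37 of them planned and 15 chosen after seeing the data. In 35 the value stayed within the interval of the reported value and in 17 it moved out of it. The NOD to B6 ratio, the only ratio among the values, stayed above 1 in all its alternatives. For the repeated shares the interval took regions and not words as the unit, so staying or moving is only a rough guide there. With a score of at least 20, the NOD to B6 ratio of ERV1 regions was 3.94, the NOD share 5.71%, and the H3K4me3 overlap 21.3% in NOD and 12.9% in B6. With regions of at most 1000 bp, the ratio was 1.44, the NOD share 2.29%, the overlap 4.50% in NOD and 1.30% in B6, and the super enhancer share 2.70% in NOD and 1.30% in B6. Without LTRIS2 the ratio was 1.41 and the NOD share 2.12%. With at least 50% of the region covered, the overlap was 2.35% in NOD and 0 in B6. Words of 36 bases gave a repeated share of 43.3% in NOD. H3K27ac regions of at most 2000 bp gave 13.0% of LTRIS2-like copies in NOD and 0.644% in B6. Leaving out wide regions and raising the score both change which regions are counted; the cause of the other shifts was not tested. Keeping only scores above 0 (run for 7 of the values), leaving out chromosomes 6, 8, 11 and X (run for 5) and counting neighbours within 10 kb once (run for 3) moved none of those values out of its interval. No ERV1 region had a score at or below 0 and no ERV1 pair lay within 10 kb. The score limit of 0 and the joining of neighbours thus could not change an ERV1 count, although they are among the 35.

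No paired analysis was possible because each strain and mark has 1 library, and there is no replicate to leave out. No depth is known for H3K27ac. The NOD H3K4me3 library was 1.54 times as deep as that of B6, and the effect of this on the lists was not tested.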
